A study of Mus musculus with 24 samples.

Results

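Zfp36, Zfp36l1, Zfp36l2, Zc3h12a, Zc3h12d and Rc3h1 encode RNA-binding proteins that speed the decay of messenger RNAs. They were chosen by name as the Zfp36 family, the Regnase genes Zc3h12a and Zc3h12d, and the Roquin gene Rc3h1, and make up 6 of the 23366 genes in the deposited tables of a study of mouse CD8+ T cells. Zfp36, Zfp36l1 and Zfp36l2 bind AU-rich elements in 3′ untranslated regions (UTRs) and recruit the CCR4-NOT deadenylase, which shortens the poly(A) tail. Regnase-1, the product of Zc3h12a, is an endonuclease that cuts stem-loops in the 3′ UTRs of translated transcripts, and Zc3h12d encodes the related Regnase-4. Roquin-1, the product of Rc3h1, binds stem-loops and brings the deadenylase to them. In T cells these proteins are known to restrain cytokine transcripts and activation, and receptor signalling inactivates several of them, through phosphorylation of Zfp36 or cleavage of Regnase-1 and Roquin by the protease Malt1.

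RNA was sequenced from 24 libraries in 8 groups of 3. Each library came from 1000 sorted cells and was made with 11 amplification cycles. All cells were from the C57BL/6 strain and carried Nr3c1fl/fl, the floxed allele of the glucocorticoid receptor gene, so the wild type (WT) group is floxed too. WT cells were negative for E8i-Cre, a Cre active in the mature CD8 lineage, and the conditional knockout (cKO) cells were E8i-Cre+. Naive cells from spleen and lymph nodes were activated with antibodies to CD3 and CD28. At day 3, WT and cKO cells had spent 3 days in culture, either with nothing added (Ctrl) or with the synthetic glucocorticoid dexamethasone (Dex) at 10 nM. At day 9, WT cells had been stimulated for 3 days, rested in IL2 for 3 days and restimulated for 3 days, with no addition (Ctrl), Dex, 25 ng/ml of the cytokine IL27, or both (Dex+IL27) present during both stimulations. The labels give no cKO group at day 9 and no age, and they do not say whether the 3 libraries of a group came from separate animals or cultures, so the p-values measure only the spread between these libraries.

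Library totals of the estimated counts ranged from 14221900 to 19018400. Nr3c1 lay between 14.9 and 21.4 CPM (counts scaled to library size) in the 6 WT libraries of day 3 and between 5.32 and 8.20 CPM in the 6 cKO libraries, so no library went against its label. Tsc22d3, a gene that glucocorticoids are known to induce, rose with Dex in WT by 1.73 ± 0.11 on the log2 scale (edgeR adjusted p = 8.43e-09), and its difference in cKO cells was 0.24. The count is over the whole gene and cannot separate transcripts with and without the floxed part. Summed CD8 T cell markers lay between 1908 and 2848 CPM in every library. Pax5 was at 0 in all 24 libraries, the 6 B cell markers summed to between 6.97 and 21.3 CPM, and the 8 myeloid and dendritic markers summed to 12.3 CPM at most. These myeloid markers summed to 9.31 to 12.3 CPM in Dex+IL27 and to 1.64 to 1.91 CPM in day 9 Ctrl, with Lyz2, Emr1 and Siglech at 0 in the 3 Dex+IL27 libraries. Most of that sum was Itgam, at 7.86 to 11.01 CPM in Dex+IL27 and 0 to 0.459 CPM in Ctrl, which rose with Dex, IL27 and Dex+IL27 by 3.40 ± 0.89, 3.13 ± 0.90 and 5.65 ± 0.81 (edgeR adjusted p = 0.00441, 0.00776 and 1.85e-05). Flt3 rose with IL27 by 1.66 ± 0.58 (edgeR adjusted p = 0.0239). The 5 erythroid and platelet markers summed to 5.95 CPM at most, the 2 NK markers to 0.790 CPM at most, and the 4 CD4 T cell markers to between 11.4 and 22.3 CPM. Single markers within these sums also passed at day 9. Of the 7 CD8 T cell markers, 4 rose and 1 fell with Dex, 3 and 3 with IL27, and 3 and 2 with Dex+IL27. In that order 55.6%, 57.4% and 66.9% of all genes passed, and 28.2%, 29.3% and 34.3% were higher. Cd3e rose in all 3 (0.46, 0.52 and 0.98), while Cd8a fell with IL27 (-0.57) and Dex+IL27 (-0.31). Cd4 rose with IL27 (2.58). Zbtb7b rose with Dex, IL27 and Dex+IL27 (1.04, 1.38 and 0.93), as did Cd22 of the B cell markers (2.03, 1.65 and 1.73). Cd40lg fell in the same 3 (-3.30, -3.70 and -4.39). With Dex+IL27, Cd79b fell (-0.47) and Itga2b rose (1.25). The ribosomal precursor Rn45s took 9.11% ± 0.15 (SD, n = 3) of counts in day 9 Ctrl and 14.6%, 14.1% and 16.04% in Dex, IL27 and Dex+IL27. Leaving Rn45s out before scaling changed the call of none of the 72 member results, while the part of the other cell types in the results was not tested. Replicate 1 of IL27 at day 9 stood apart from replicates 2 and 3 of its group, with a chi-square per gene of 26.8 and 15.99 against 4.33 to 14.2 for the other pairs within groups. Among those, the pairs with replicate 6 of day 3 cKO Dex gave 14.2 and 10.6, and the other pair of that group 4.42. The pairs with replicate 2 of Dex+IL27 gave 9.70 and 13, and the other pair 6.78.

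The sequences below show the element that the Zfp36 proteins read, first in the transcripts of the family itself and then in 4 cytokine transcripts whose levels are described further on. Each line is 30 bases of a 3′ UTR, 5′ to 3′ on the transcript, with the AU-rich heptamer TATTTAT in capitals, taken from GENCODE M21 transcripts on GRCm38.
Zfp36: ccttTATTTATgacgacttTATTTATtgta
Zfp36l1: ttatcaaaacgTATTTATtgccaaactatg
Zfp36l2: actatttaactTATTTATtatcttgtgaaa
Ifng: cTATTTATtaatatttaaaacTATTTATat
Lta: aagttaagtTATTTATTTATagagaataga
Tnf: TATTTATTATTTATTTATTATTTATTTATt
Il10: tctctccgaaaTATTTATtacctctgatac
In the same order the sites lie at chr7:28376958-28376987 (minus strand), chr12:80108421-80108450 (minus), chr17:84184913-84184942 (minus), chr10:118445333-118445362 (plus), chr17:35203393-35203422 (minus), chr17:35199677-35199706 (minus) and chr1:131024385-131024414 (plus), each within 1 exon. The 3′ UTRs of Zfp36, Zfp36l1 and Zfp36l2 each held 3 heptamers and 1 nonamer (TTATTTATT, which contains the heptamer). Among 3′ UTRs within 20% of the same length, 3 or more heptamers were found in 1.31% for Zfp36, 4.25% for Zfp36l1 and 4.24% for Zfp36l2. Rc3h1 held 2 heptamers in a 3′ UTR of 7181 bases, and 46.4% of 3′ UTRs of like length held as many. The 3′ UTRs of Zc3h12a and Zc3h12d held none. The motif was searched on the transcript strand only, and a match is a description of the letters.

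Levels per transcript length, in the deposited FPKM, set Zc3h12d highest of the members in all 8 groups, from 15.5 ± 1.99 (SD, n = 3) in day 9 Ctrl to 31.7 ± 2.93 in day 3 WT Ctrl. Rc3h1 was lowest in 7 groups, at 1.63 to 2.43 mean FPKM, and in day 3 WT Ctrl its 2.56 ± 0.11 FPKM lay beside 2.42 ± 0.26 for Zfp36l2. The other members changed places. By mean FPKM, Zfp36l2 ranked 4 of 6 in WT Dex at day 3 (7.14 ± 0.32 FPKM) and 2 of 6 in Dex (12.5 ± 0.94 FPKM) and Dex+IL27 (17.2 ± 0.56 FPKM) at day 9. Zc3h12a ranked 2 of 6 in day 9 Ctrl (6.91 ± 0.67 FPKM) and 5 of 6 in Dex, IL27 and Dex+IL27 (4.11, 4.48 and 4.07 mean FPKM). All other levels below are CPM after TMM scaling, which compare a gene between groups and not genes with each other.

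**Figure D1:**
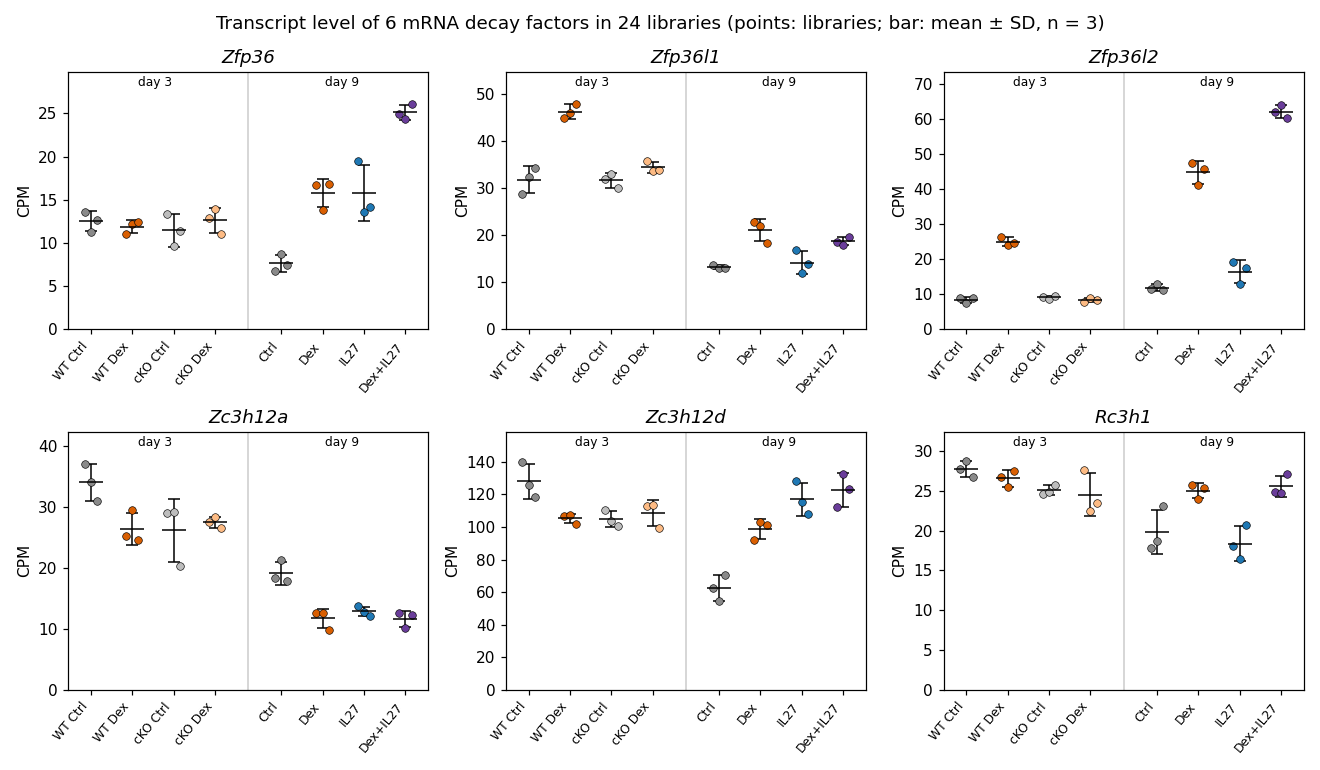
CPM (y axis, from 0) of each of the 6 genes in the 24 libraries, with 4 groups of day 3 to the left of the grey line and 4 groups of day 9 to its right; points are libraries and bars the mean ± SD of 3. Zfp36l2 is high in the Dex groups of WT cells at both days and not in cKO Dex, while the Zfp36 groups of day 3 overlap and those of day 9 run from a mean of 7.64 in Ctrl to 25.1 in Dex+IL27.

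Zfp36l2, the AU-rich element binder that with Zfp36l1 is known to hold developing and naive lymphocytes in quiescence, had the widest range of the 6 genes. At day 3 its level was 8.81, 7.38 and 9.08 CPM in WT Ctrl and 26.4, 24.1 and 24.6 CPM in WT Dex. The cKO libraries gave 9.10, 8.76 and 9.53 CPM in Ctrl and 7.86, 8.92 and 8.40 CPM in Dex. The WT Dex libraries thus lay above the other 9 of the day, which overlapped. With Dex, Zfp36l2 rose in WT cells by 1.58 ± 0.12 (log2 fold change ± SE, 3 libraries a group, edgeR quasi-likelihood test, adjusted p = 1.04e-07), rank 157 of 11967 genes by the size of the change. In cKO cells the difference was -0.12 ± 0.12 (edgeR adjusted p = 1.0). The Dex effect in WT exceeded that in cKO by 1.70 ± 0.17 (edgeR interaction, adjusted p = 1.21e-05). With Dex present, cKO cells had less Zfp36l2 than WT cells (-1.58 ± 0.12, edgeR adjusted p = 1.02e-07), and without Dex the genotypes differed by 0.12 ± 0.13 (edgeR adjusted p = 0.677).

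At day 9 Zfp36l2 was at 11.5, 13.01 and 11.1 CPM in Ctrl and at 47.4, 41.1 and 45.7 CPM in Dex. IL27 libraries were at 19.1, 12.95 and 17.4 CPM and Dex+IL27 libraries at 62.1, 63.9 and 60.2 CPM. The groups containing Dex lay apart from the rest and from each other, while the lowest IL27 library lay within the range of Ctrl. Dex raised Zfp36l2 by 1.89 ± 0.13 (edgeR adjusted p = 2.39e-08) and Dex+IL27 by 2.37 ± 0.13 (edgeR adjusted p = 8.76e-10) over the same Ctrl libraries. IL27 alone raised it by 0.44 ± 0.13 (edgeR adjusted p = 0.00921), and without IL27 replicate 1 the change was 0.32 with an adjusted p of 0.0522. Adding IL27 to Dex gave a further 0.49 ± 0.12 (edgeR adjusted p = 0.00527). The Dex effect with IL27 differed from that without by 0.05 ± 0.17 (edgeR interaction, adjusted p = 0.858). Over the 8 groups the order of mean CPM ran Dex+IL27, Dex and IL27 of day 9, with day 3 WT Dex (25.0 CPM) between Dex and IL27, then day 9 Ctrl (11.9) and the 3 remaining day 3 groups (8.39 to 9.13). Libraries of neighbours in that order overlapped between IL27 and day 9 Ctrl and among the last 3 groups.

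Zfp36 encodes tristetraprolin, the founding member of the family, which is induced early after activation and binds its own transcript. At day 3 it lay between 9.64 and 13.9 CPM in all 12 libraries, and no comparison of that day passed the test for it. The WT Dex difference was -0.07 ± 0.14 (edgeR adjusted p = 0.825). At day 9 Zfp36 was at 6.71, 8.71 and 7.49 CPM in Ctrl and at 16.7, 13.9 and 16.8 CPM in Dex. IL27 gave 19.5, 13.5 and 14.2 CPM and Dex+IL27 gave 24.9, 24.3 and 26.1 CPM. All treated libraries lay above Ctrl, and all Dex+IL27 libraries lay above those of either agent alone, which overlapped each other. Zfp36 rose with Dex by 1.02 ± 0.16 (edgeR adjusted p = 5.74e-05), with IL27 by 1.01 ± 0.15 (5.64e-05 in the same test) and with Dex+IL27 by 1.70 ± 0.15 (1.40e-07), all against the same Ctrl libraries. Dex+IL27 exceeded Dex by 0.69 ± 0.15 (edgeR adjusted p = 0.00269) and IL27 by 0.70 ± 0.15 (edgeR adjusted p = 0.00295). The interaction of Dex and IL27 was -0.32 ± 0.21 (edgeR adjusted p = 0.288). Without IL27 replicate 1, the highest of its group, the IL27 change was 0.82 with an adjusted p of 1.73e-04. The order of group means ran from 25.1 CPM in Dex+IL27 through Dex and IL27 (both 15.8) and the 4 day 3 groups (11.5 to 12.6) to day 9 Ctrl (7.64), and neighbours from Dex down to day 3 cKO Ctrl overlapped.

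The 60 bases before the Zfp36 start are shown because Zfp36 is the member with a rise under IL27 alone whose RefSeq promoter window held a match to the GAS motif, the element bound by STAT proteins, through which IL27 is known to signal. The window is chr7:28379229-28379288 (minus strand, RefSeq table on GRCm38.p6), with the match in capitals.
Zfp36 promoter: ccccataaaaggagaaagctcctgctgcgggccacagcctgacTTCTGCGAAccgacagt
The match to TTCNNNGAA begins 17 bases before the start. Of 32851 RefSeq windows of 300 bases, 8.30% held this motif on either strand. The window of Zc3h12d, which also rose with IL27, held no match, and Zfp36 rose by a like amount with Dex. The part of this match in the IL27 rise was not tested. Promoter windows were found for 5 of the 6 members, Zfp36l2 having none, and none of the 5 held the full palindromic glucocorticoid response element (0.00913% of windows) or TGTTCT, one arm of it (19% of windows). The AP-1 motif TGANTCA, in 7.81% of windows, was found for Rc3h1 and Zfp36l1. Motifs were searched on both strands, GAS and AP-1 read the same on both, and TGTTCT is contained in the full glucocorticoid element. No binding was measured, and a window without these letters says nothing of sites elsewhere.

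Zfp36l1, which acts with Zfp36l2 in lymphocyte quiescence, also rose with Dex in WT cells at day 3 but over a narrower range. It was at 28.7, 32.3 and 34.4 CPM in WT Ctrl and 44.8, 46.0 and 48.0 CPM in WT Dex. In cKO cells it was at 31.9, 33.0 and 30.05 CPM in Ctrl and 35.8, 33.7 and 33.9 CPM in Dex. WT Dex lay above the other 9 libraries, and the cKO Dex libraries lay just above cKO Ctrl. The change in WT was 0.55 ± 0.08 (edgeR adjusted p = 2.46e-04) and that in cKO 0.12 ± 0.08 (edgeR adjusted p = 1.0). The difference between these effects, 0.43 ± 0.12, did not pass (edgeR interaction, adjusted p = 0.0549), and it passed in 3 alternatives, without WT Ctrl replicate 3 (0.48, adjusted p = 0.0373), with DESeq2 (0.0287) and with the replicate number as a block (0.0488). With Dex, cKO cells had less Zfp36l1 than WT cells by a log2 difference of -0.43 ± 0.08 (edgeR adjusted p = 0.00249).

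At day 9 Zfp36l1 was at 13.7, 12.96 and 13.1 CPM in Ctrl, 22.9, 22.0 and 18.4 CPM in Dex and 18.6, 17.9 and 19.6 CPM in Dex+IL27. IL27 libraries were at 16.8, 11.9 and 13.8 CPM and overlapped Ctrl. Zfp36l1 rose with Dex by 0.64 ± 0.13 (edgeR adjusted p = 8.18e-04) and with Dex+IL27 by 0.49 ± 0.13 (edgeR adjusted p = 0.00463). The IL27 difference was 0.06 ± 0.13 (edgeR adjusted p = 0.713). Dex+IL27 exceeded IL27 by 0.42 ± 0.13 (edgeR adjusted p = 0.0290), a call lost without IL27 replicate 2 (adjusted p = 0.128) or 3 (0.0904) and without Dex+IL27 replicate 1 (0.0676) or 3 (0.0857). It was also lost on library totals (0.0509), with the 2 groups alone (0.0740) and with unfiltered limma on FPKM (0.0578), 7 of 17 alternatives in all. The highest mean of the 8 groups was day 3 WT Dex (46.3 CPM), and all 12 libraries of day 3 lay above all 12 of day 9. The effect of the day itself was not tested, since culture history runs with it.

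Summed over the 3 genes, Zfp36 family transcripts went from 12.3 ± 0.74 FPKM in day 9 Ctrl to 17.9 ± 3.25 in IL27, 28.3 ± 1.88 in Dex and 37.3 ± 0.17 in Dex+IL27. At day 3 WT cells had a sum of 20.4 ± 0.97 FPKM in Ctrl and 29.5 ± 0.79 with Dex, and cKO cells had 19.9 ± 1.04 and 21.3 ± 0.89. The make-up moved with it: Zfp36l2 supplied 11.8% ± 0.88 of the sum in WT Ctrl and 24.2% ± 1.55 in WT Dex at day 3, with 13.1% and 11.3% in the cKO groups. At day 9 its share was 27.7% ± 0.88 in Ctrl, 25.5% ± 2.21 in IL27, 44.2% ± 0.97 in Dex and 46.2% ± 1.71 in Dex+IL27. Zfp36 held its highest share in IL27 (48.6% ± 2.47), and Zfp36l1 supplied at least 48.5% in every day 3 library and 16.5% ± 0.62 in Dex+IL27. These shares were not tested.

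**Figure D2:**
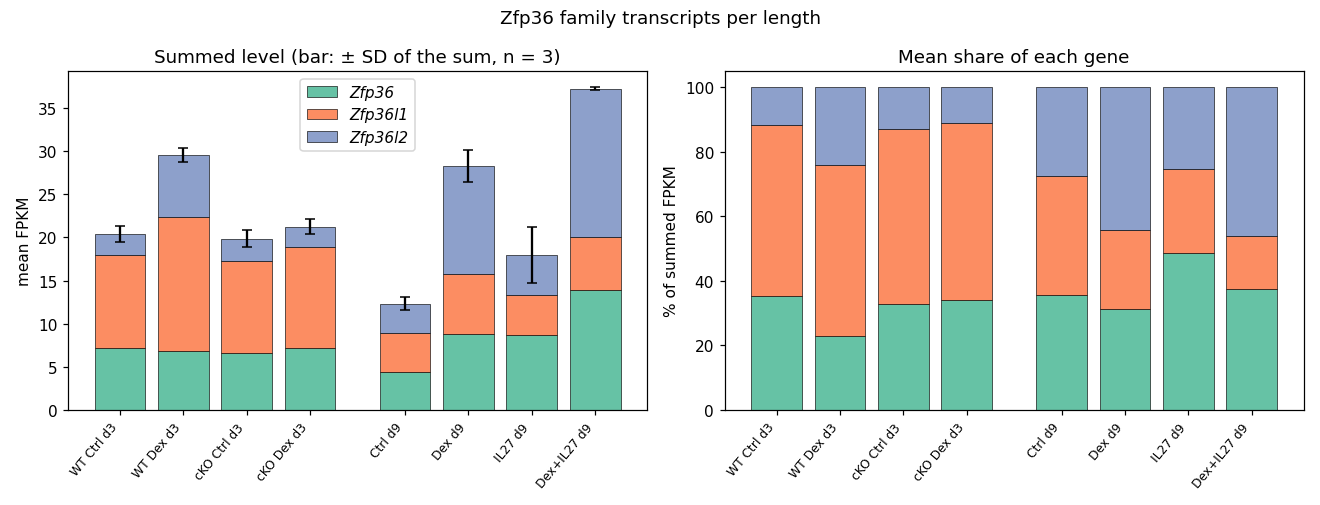
Mean FPKM of the 3 Zfp36 family genes stacked by group (left, with the SD of the sum over 3 libraries) and the mean share of each gene in the sum in percent (right), day 3 and day 9 groups apart. The sum is highest in Dex+IL27 at 37.3 FPKM, where Zfp36l2 makes up 46.2% of it.

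Zc3h12a, the gene of Regnase-1, was the one member that fell in every treated group of day 9. Its levels there were 18.3, 21.2 and 17.8 CPM in Ctrl, 12.6, 12.5 and 9.85 CPM in Dex, 13.6, 12.7 and 12.1 CPM in IL27 and 12.5, 10.1 and 12.3 CPM in Dex+IL27. Every Ctrl library lay above every treated one, and the treated groups overlapped. Zc3h12a fell by 0.74 ± 0.14 with Dex on the log2 scale (edgeR adjusted p = 3.60e-04), by 0.61 ± 0.14 with IL27 (0.00139) and by 0.72 ± 0.14 with Dex+IL27 (2.73e-04), against shared Ctrl libraries. Dex+IL27 differed from Dex by 0.01 ± 0.14 and from IL27 by -0.11 ± 0.14 (edgeR adjusted p = 0.959 and 0.595). The interaction was 0.62 ± 0.20 (edgeR adjusted p = 0.0279), the Dex difference being -0.74 without IL27 and -0.11 with it. That call was lost without Ctrl replicate 2 (adjusted p = 0.0702), Dex replicate 3 (0.0718), IL27 replicate 3 (0.0630) and Dex+IL27 replicates 1 (0.0663) or 3 (0.0588).

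At day 3 Zc3h12a was at 37.0, 34.0 and 30.9 CPM in WT Ctrl and 25.2, 29.4 and 24.6 CPM in WT Dex, without overlap. The cKO libraries were at 29.0, 29.2 and 20.2 CPM in Ctrl and 27.6, 28.3 and 26.5 CPM in Dex, and both cKO groups lay below WT Ctrl. The Dex difference in WT, -0.36 ± 0.12, did not pass (edgeR adjusted p = 0.0812), but passed with no low-count filter (0.0160), with DESeq2 (0.0474), with only the 2 groups fitted (0.0287) and with the replicate block (0.0462). The Dex difference in cKO was 0.07 ± 0.13 (edgeR adjusted p = 1.0), and that between genotypes without Dex was -0.38 ± 0.12 (edgeR adjusted p = 0.117).

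Zc3h12d, whose product Regnase-4 has a ribonuclease domain like that of Regnase-1 and was described as a brake on T cell activation, went the other way from Zc3h12a at day 9. Ctrl libraries held 62.6, 54.7 and 70.5 CPM, Dex libraries 92.1, 103 and 101 CPM, IL27 libraries 128, 115 and 108 CPM and Dex+IL27 libraries 112, 133 and 123 CPM. Ctrl lay below all 9 treated libraries, Dex lay below both groups with IL27, and those 2 groups overlapped. Zc3h12d rose by 0.63 ± 0.10 with Dex (edgeR adjusted p = 6.26e-05), 0.86 ± 0.10 with IL27 (2.69e-06) and 0.96 ± 0.10 with Dex+IL27 (4.91e-07). Dex+IL27 exceeded Dex by 0.33 ± 0.10 (edgeR adjusted p = 0.0171), a call lost without Dex replicate 1 (0.0703) or Dex+IL27 replicate 2 (0.0716) and with unfiltered limma on FPKM (0.0634). Dex+IL27 differed from IL27 by 0.09 ± 0.10 (edgeR adjusted p = 0.509). The interaction was -0.54 ± 0.14 (edgeR adjusted p = 0.00906): the Dex difference was smaller with IL27 present than without.

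At day 3 Zc3h12d was at 140, 126 and 119 CPM in WT Ctrl and 106, 107 and 102 CPM in WT Dex. The cKO groups were at 111, 104 and 101 CPM in Ctrl and 113, 113 and 99.3 CPM in Dex. WT Ctrl lay above the other 9 libraries, which overlapped. Zc3h12d fell with Dex in WT by 0.28 ± 0.07 on the log2 scale (edgeR adjusted p = 0.0190). The call was lost without WT Ctrl replicate 1 (a change of -0.21, adjusted p = 0.111) or 2 (0.0506) and without WT Dex replicate 1 (0.0546) or 3 (0.0886), and also with all 24 libraries in the fit (0.0506) and with unfiltered limma on FPKM (0.0531). Without Dex it was lower in cKO than in WT by -0.28 ± 0.07 (edgeR adjusted p = 0.0442), a call lost without WT Ctrl replicate 1 (0.189) or 2 (0.111) and without any 1 of the cKO Ctrl libraries (0.0717, 0.102 and 0.1249). It was also lost with the 2 groups alone (0.0555), with all 24 libraries (0.103) and in the 3 limma fits on FPKM (0.0619 to 0.128), 10 of 16 alternatives in all. Both of these comparisons rest on the same WT Ctrl libraries. The Dex difference in cKO was 0.05 ± 0.07 (edgeR adjusted p = 1.0), and the interaction of genotype and Dex, -0.32 ± 0.10, did not pass (edgeR adjusted p = 0.102). That interaction passed with no low-count filter (0.0364), with DESeq2 (0.0481), with the replicate block (0.0452) and without cKO Dex replicate 6 (0.0320). The Dex effect at day 9 exceeded that at day 3 by 0.94 ± 0.12 (edgeR adjusted p = 1.88e-06). In FPKM, the ratio of Zc3h12d to Zc3h12a was 2.27 ± 0.48 in day 9 Ctrl, and the treated groups had 5.89 ± 1.03 (Dex), 6.24 ± 0.17 (IL27) and 7.33 ± 1.45 (Dex+IL27), while its mean lay between 2.58 and 2.82 in the day 3 groups.

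Rc3h1, the Roquin-1 gene, varied least. Its 12 libraries of day 3 lay between 22.5 and 28.8 CPM, and no comparison of that day passed the test. At day 9 it was at 17.8, 18.7 and 23.0 CPM in Ctrl, 25.7, 23.9 and 25.3 CPM in Dex, 18.0, 16.4 and 20.7 CPM in IL27 and 24.9, 24.7 and 27.1 CPM in Dex+IL27. The 6 libraries with Dex lay above the 6 without. Rc3h1 rose with Dex+IL27 over IL27 by 0.50 ± 0.12 (edgeR adjusted p = 0.00618), a call lost with unfiltered limma on FPKM (0.0512). It rose with Dex over Ctrl by 0.30 ± 0.12 (edgeR adjusted p = 0.0403), a call lost without Ctrl replicate 1 (0.168) or 2 (0.134) and without any 1 of the Dex libraries (0.104, 0.0590 and 0.0884). It was lost in 11 of 17 alternatives, among them DESeq2 size factors (0.0511), no low-count filter (0.0869) and the 3 limma fits on FPKM (0.109 to 0.148). With Dex+IL27 over Ctrl it rose by 0.35 ± 0.12 (edgeR adjusted p = 0.0158), a call lost without Ctrl replicate 1 (0.0724) or 2 (0.0585) or Dex+IL27 replicate 3 (0.0582) and in the 3 limma fits (0.0749 to 0.101). On library totals the Dex and Dex+IL27 changes over Ctrl were 0.25 and 0.23 and did not pass (edgeR adjusted p = 0.0850 and 0.0983). The IL27 difference was -0.15 ± 0.12 (edgeR adjusted p = 0.297).

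Counted together, all 6 members passed the low-count filter in every fit. With Dex in WT at day 3, 2 rose (Zfp36l2 and Zfp36l1) and 1 fell (Zc3h12d), where 9.43% of 11967 genes passed, 4.93% higher and 4.50% lower. Libraries did not overlap for 4 of the 6, against 29.8% of all genes. With Dex in cKO cells 0 members passed, and so did 0% of all genes with edgeR and with DESeq2, with 399 genes and 0 members at an unadjusted p under 0.05. The cKO libraries with and without Dex did not overlap for Zfp36l1, as for 7.83% of genes. The interaction of genotype and Dex passed for Zfp36l2 alone among the members (2.95% of genes). Between genotypes 1 member passed without Dex, and it was lower (2.36% of genes passed, 1.38% higher and 0.986% lower). Libraries did not overlap there for 3 members, against 22.2% of genes. With Dex 2 members passed (6.90% of genes, 3.63% higher and 3.28% lower). Both were lower and without overlap, against 23.3% of genes without overlap. At day 9 the background was far higher: 6 members passed with Dex (55.6% of 12320 genes), 4 with IL27 (57.4%) and 6 with Dex+IL27 (66.9%), 5, 3 and 5 of them higher and 1 lower in each. For all genes the shares higher and lower were 28.2% and 27.4% with Dex, 29.3% and 28.1% with IL27, and 34.3% and 32.6% with Dex+IL27. Libraries did not overlap with Ctrl for 6, 3 and 6 members, against 64.7%, 64.6% and 70.6% of genes. Dex+IL27 against Dex gave 3 (32.0% of genes, 14.9% higher and 17.1% lower) and against IL27 4 (26.1%, 11.7% higher and 14.3% lower). All of these members were higher and without overlap. In either direction, 44.7% and 37.0% of genes did not overlap. The interaction of Dex and IL27 passed for 2 (28.5%), and the Dex effect differed between days for 3 (39.6% of 12666 genes, 20.4% higher and 19.2% lower at day 9). These were Zfp36 (1.12 ± 0.21, edgeR adjusted p = 1.46e-04), Zc3h12d and Rc3h1, and Zfp36l2 was not among them (0.34 ± 0.17, edgeR adjusted p = 0.107). The Rc3h1 difference between days, 0.39 ± 0.15 (edgeR adjusted p = 0.0349), was lost without replicate 1 or 2 of day 3 Ctrl, day 3 Dex or day 9 Ctrl and without replicate 1 or 3 of day 9 Dex, with an adjusted p of at most 0.1003. It was also lost on library totals (0.0740), with no low-count filter (0.148) and in the 3 limma fits on FPKM (0.0989 to 0.126), 13 of 21 alternatives in all. Without IL27 replicate 1, the IL27 changes of Zc3h12a and Zc3h12d were -0.66 and 0.79 (edgeR adjusted p = 0.00230 and 7.65e-06), and their interactions of Dex and IL27 were 0.67 and -0.47 (0.0278 and 0.0165). Dex+IL27 then exceeded IL27 by 0.88 for Zfp36, 0.56 for Zfp36l1, 2.05 for Zfp36l2 and 0.48 for Rc3h1, with each call kept. On bulk RNA, fewer cells expressing a gene and less RNA per cell cannot be told apart.

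**Figure D3:**
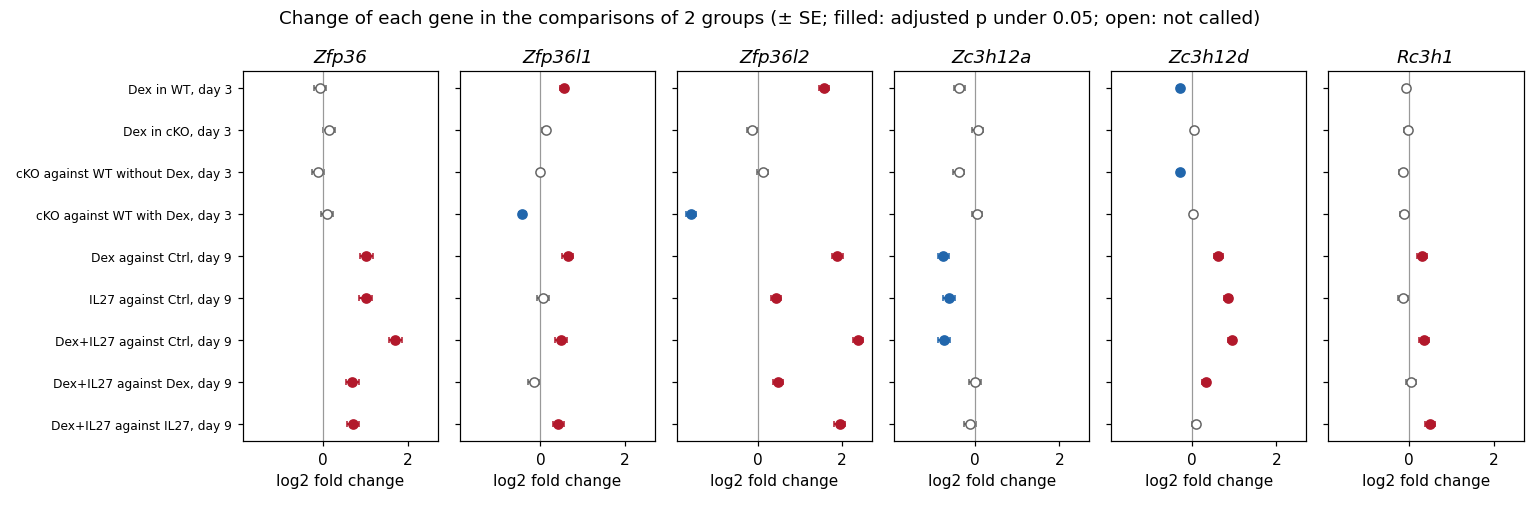
Log2 fold change ± SE of each gene (x axis) in the 9 comparisons of 2 groups (y axis); filled points passed at an adjusted p under 0.05, red higher and blue lower, and open points did not pass. Zfp36l2 lies furthest from 0 where Dex is compared in WT cells, and Zc3h12a and Zc3h12d lie on opposite sides of 0 in the 3 day 9 comparisons with Ctrl.

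The genes whose group profiles were most like those of Zfp36 and Zfp36l2 were sought by the root mean square (RMS) difference of mean log2 CPM from the WT Ctrl of the same day over the 6 other groups, among 8078 genes. Only these 2 members spanned at least 1 on that scale within a day. Nearest to Zfp36 were Clk1, a kinase of splicing factors (RMS 0.045), the small nucleolar RNA host gene Snhg5 (0.078) and 1810032O08Rik (0.079). Clk1 stood at 1.03, 1.00 and 1.79 above Ctrl in Dex, IL27 and Dex+IL27 at day 9, beside 1.05, 1.03 and 1.72 for Zfp36. Nearest to Zfp36l2 were Icos, Hhat and Gramd4, at larger distances of 0.31, 0.31 and 0.34. Icos, a costimulatory receptor and itself a target of Roquin, stood at 1.09 in day 3 WT Dex and 2.15 in day 9 Dex on this scale, beside 1.57 and 1.91 for Zfp36l2.

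With Dex in WT at day 3, 4.93% of all genes were called higher and 4.50% lower. Among 14 genes of kinases, adaptors and the protease that act on the members, 3 rose and 0 fell in that comparison (median 0.09, all genes 0.01). These were Malt1, the paracaspase that cleaves Regnase-1 and Roquin (0.67 ± 0.12, edgeR adjusted p = 0.00180), Mapkapk2, the kinase that phosphorylates Zfp36 (0.43 ± 0.09), and Tnip1, an adaptor of the A20 complex (0.43 ± 0.09). Malt1 was at 50.8, 34.3 and 43.2 CPM in WT Ctrl and 68.1, 69.0 and 65.5 CPM in WT Dex at day 3. At day 9 it was at 23.5, 29.8 and 30.3 CPM in Ctrl, 170, 143 and 133 CPM in Dex, 72.5, 56.5 and 65.4 CPM in IL27 and 194, 195 and 165 CPM in Dex+IL27. Every treated library lay above the Ctrl libraries of its day. The day 9 Malt1 changes were 2.39 ± 0.13 with Dex, 1.18 ± 0.13 with IL27 and 2.71 ± 0.13 with Dex+IL27 (edgeR adjusted p = 4.1e-09, 1.7e-06 and 3.9e-10). N4bp1, an RNA-binding protein that Malt1 also cleaves, rose by 1.58 ± 0.11 with Dex, and Ywhab, a 14-3-3 protein of the kind that binds phosphorylated Zfp36, fell by 1.14 ± 0.08. Of the 14 genes, 8 rose and 3 fell with Dex at day 9 (median 0.32, all genes 0.03), 6 and 2 with IL27, and 9 and 2 with Dex+IL27. In the same order 55.6%, 57.4% and 66.9% of all genes passed, and 28.2%, 29.3% and 34.3% were higher. The number of the 14 that passed with IL27 lies near that share.

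Genes of the deadenylation machinery that the Zfp36 proteins and Roquin recruit were called at day 9 in shares near those of all genes. Of 18 genes, 1 rose with Dex in WT at day 3, Btg1, a partner of the CCR4-NOT complex (0.37 ± 0.11, edgeR adjusted p = 0.0405). The share of all genes called higher in that comparison was 4.93%. At day 9, 5 rose and 6 fell with Dex, 5 and 5 with IL27, and 6 and 6 with Dex+IL27. All genes had 28.2% higher and 27.4% lower with Dex, 29.3% and 28.1% with IL27, and 34.3% and 32.6% with Dex+IL27. Btg1 rose by 2.03 ± 0.10 and Pan2, a deadenylase subunit, by 1.04 ± 0.10 with Dex, while the CCR4-NOT subunit Cnot9, listed under its older symbol Rqcd1, fell by 0.69 ± 0.06. Of 17 genes of decapping and exonucleases, Skiv2l, a helicase of the cytoplasmic exosome, rose with Dex at day 3 (0.30 ± 0.09, edgeR adjusted p = 0.0469). At day 9, 0 of the 17 rose and 9 fell with Dex (median -0.25, all genes 0.03), 0 rose and 9 fell with IL27, and 1 rose and 8 fell with Dex+IL27. Among those that fell with Dex were Xrn2, the nuclear 5′ to 3′ exonuclease (-0.34 ± 0.05), Exosc10, a nuclear exosome subunit (-0.46 ± 0.08), and Lsm1, an activator of decapping (-0.55 ± 0.09).

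Other proteins that bind AU-rich elements or stem-loops were counted in the same way. Of 12 tested at day 3, Arid5a, which is known to oppose Regnase-1 on shared targets, rose with Dex in WT by 0.51 ± 0.09 (edgeR adjusted p = 8.5e-04). Of 13 at day 9, 3 rose and 4 fell with Dex, 3 and 7 with IL27, and 3 and 3 with Dex+IL27. The shares of all genes are those just given, and only the Dex counts lie near them. Arid5a rose by 1.11 ± 0.08 and Nufip2, a cofactor of Roquin, by 0.48 ± 0.08 with Dex, while Elavl1, which encodes the stabilising protein HuR, fell by 0.52 ± 0.09. In cKO cells 0 genes of these lists passed with Dex, as did 0% of all genes.

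Known target transcripts of the members were lower more often than higher with Dex. The list holds 22 cytokine, chemokine and signalling transcripts and was chosen with earlier results of these data known, so its majority direction is a description. Some of them are themselves regulated by glucocorticoids, and the RNA levels measured here do not separate decay from transcription. At day 3 in WT cells, 3 of 21 rose and 8 fell with Dex (median -0.25, all genes 0.01), and in cKO cells 0 rose and 0 fell (median 0.01). The shares of all genes were 4.93% higher and 4.50% lower in WT, and 0% in cKO. Against the same WT Ctrl libraries, cKO cells without Dex had 0 of the 21 higher and 3 lower, with a median of -0.29, so a median of that size was also found with no Dex. There 1.38% of all genes were higher and 0.986% lower. With Dex, cKO against WT gave 3 higher and 5 lower (median -0.03), beside 3.63% and 3.28% of all genes. At day 9, 5 of 22 rose and 13 fell with Dex (median -0.72, all genes 0.03), 3 and 16 with IL27 (median -1.14, all genes 0.03), and 3 and 16 with Dex+IL27 (median -1.73, all genes 0.05). The shares of all genes higher and lower were 28.2% and 27.4%, 29.3% and 28.1%, and 34.3% and 32.6% in the same order. Il17a, Csf2, Il6, Il2, Il3 and Ptgs2 had 3 or fewer counts over a treated group in some of these day 9 comparisons. The genes at 0 were also set to a floor of 3 counts over the group. Their changes still lay below these medians, so the medians could not move. Among targets with a heptamer, the Dex+IL27 median went from -3.83 to -3.75.

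Ifng, Lta and Tnf, whose AU-rich sites are printed above, fell, and Il10, which also carries one, rose. Ifng, the main cytokine of CD8+ effector cells, was at 235, 202 and 286 CPM in day 3 WT Ctrl and 6.68, 11.3 and 1.54 CPM in WT Dex. In the cKO groups it was at 194, 193 and 236 CPM without Dex and 153, 167 and 161 CPM with it. Its fall in WT was 5.22 ± 0.29 on the log2 scale (edgeR adjusted p = 2.13e-09). Lta, the gene of lymphotoxin alpha, fell by 1.05 ± 0.08 at day 3 and by 2.59 ± 0.18 with Dex, 2.09 ± 0.17 with IL27 and 3.83 ± 0.19 with Dex+IL27 at day 9. Tnf fell by 0.94 ± 0.15 at day 3 and by 3.89 ± 0.21 with Dex+IL27 at day 9. Il10, an anti-inflammatory cytokine gene, was at 0.733, 1.38 and 0.319 CPM in day 9 Ctrl and 107, 101 and 91.6 CPM in Dex. Il10 rose by 6.93 ± 0.29 with Dex (edgeR adjusted p = 4.1e-10). Icos, a Roquin target whose 3′ UTR held no heptamer, rose by 1.09 ± 0.10 at day 3 and 2.12 ± 0.11 with Dex at day 9. The list thus holds members that moved against its majority.

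Divided by the heptamer, 1 of 14 targets with it rose and 7 fell with Dex in WT at day 3 (median -0.90), against 2 and 1 of 7 without it (median 0.17). With Dex at day 9, 2 of 15 with a heptamer rose and 11 fell (median -2.59), against 3 and 2 of 7 without (median -0.11). A split of the targets was also found with no Dex. In cKO against WT without Dex, the medians with and without a heptamer were -0.37 and -0.02. Against day 9 Ctrl they were -2.09 and -0.42 with IL27, and -3.83 and -0.31 with Dex+IL27. In Dex+IL27 against Dex both medians were -0.56. The same division of all genes was made after these results were seen and was not tested. At day 3, 3.90% of 7517 genes without a heptamer were called lower with Dex in WT, 6.55% of 3238 genes with 1 or more and 9.91% of 424 genes with 3 or more. The shares called higher were 5.23%, 4.69% and 5.19%. The same order was found without Dex against the same WT Ctrl libraries: in cKO against WT, 0.838%, 1.42% and 2.59% were called lower and 1.68%, 0.926% and 0% higher. At day 9 the shares called lower with Dex were 28.9%, 28.4% and 28.3%, with no such order. Longer 3′ UTRs hold more heptamers, and the part of length, and that of the shared WT Ctrl libraries, in the day 3 order was not tested.

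**Figure D4:**
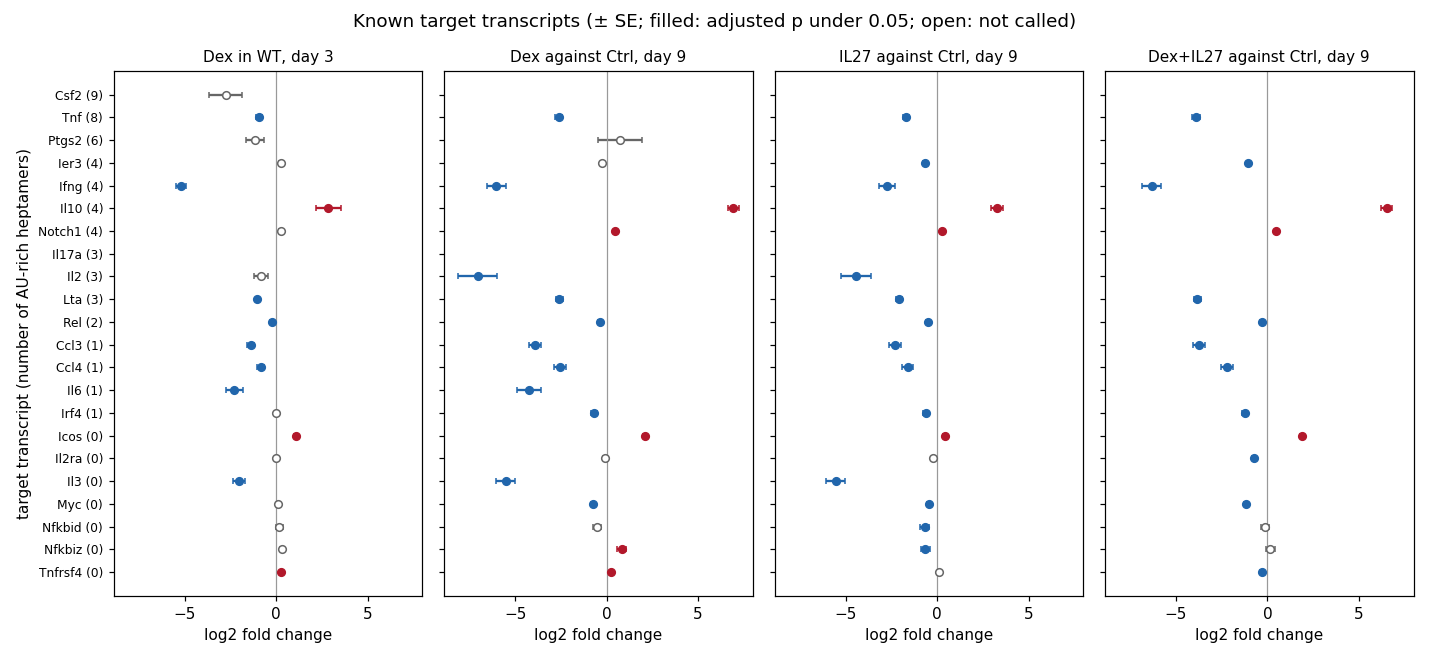
Log2 fold change ± SE (x axis) of the 22 known target transcripts, ordered by the number of AU-rich heptamers in the 3′ UTR (in parentheses), in 4 comparisons; filled points passed at an adjusted p under 0.05, red higher and blue lower, open points did not, and a gene with 3 or fewer counts in a group is not drawn. Ifng and Il10, each with 4 heptamers, lie at opposite ends with Dex at day 9, at -6.04 and 6.93.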

How the data were processed

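RNA of 24 libraries of mouse CD8+ T cells was read in pairs of 38 nt from a modified SMART-Seq2 protocol, per the labels' protocols. The authors deposited estimated counts per gene from RSEM, per the file headers, without normalization, and FPKM values for the same 23366 genes. The submitters' processing notes name TopHat, RSEM, DESeq and mm9, without versions or roles. Reads had no molecular identifiers and the protocol does not mark strand, so reads of a member and of a gene antisense to it cannot be told apart (Zfp36, Zfp36l1, Zfp36l2 and Zc3h12d each have 1 on the opposite strand in GENCODE M21), and Rc3h1 overlaps 3 unnamed models on its own strand. Zc3h12d also overlaps the microRNA gene Mir5104 on its own strand, which has its own deposited counts.

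Counts were rounded and tested with the two-sided quasi-likelihood test of edgeR 4.0.16 (R 4.3.3), with TMM scaling, filterByExpr (minimum count 10, total 15) and a prior count of 0.125. Each fit took the 12 libraries of its day, or all 24 for the difference between days, which left 11967, 12320 and 12666 genes. The 12 comparisons were adjusted over all genes by Benjamini-Hochberg, and an adjusted p under 0.05 is a pass. The SE is the log2 fold change divided by the square root of F. Fits were tested on simulated data. Named genes were the 6 members, Nr3c1, Tsc22d3, up to 3 genes of each list with the lowest p in a comparison, and the 3 genes nearest to a member by profile. Tnf, Ifng, Il10, Lta, Icos, Malt1, Btg1, Arid5a and Cd8a were also given in other comparisons. The members and lists were chosen with earlier results of these data known.

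Alternatives were DESeq2 1.42.0 and its size factors, library totals, no low-count filter, Rn45s left out, limma 3.58.1 on log2 FPKM (pseudocount 1 or 0.1, with genes kept where any group averaged 1 FPKM or more, or all genes), other sets of libraries, a replicate block and each library left out. Sequences came from GENCODE M21 transcripts (GRCm38; the protein-coding transcript with the longest 3′ UTR) and RefSeq promoter windows (GRCm38.p6), not from the build of the counts. A 3′ UTR was found for all 6 members. Figures used matplotlib 3.10.9.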

Additional observations from a re-analysis of the deposited data

Results flagged for a closer look

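Results are given here where an effect differed between 2 settings by a test of the difference itself (edgeR interaction, 3 libraries a group). The Dex effect on Zfp36l2 was larger in WT than in cKO cells by 1.70 ± 0.17 (adjusted p = 1.21e-05), and 3 of 3 WT Dex libraries lay above all others of the day. The Dex effect on Zc3h12a was less negative with IL27 than without by 0.62 ± 0.20 (edgeR adjusted p = 0.0279), a call lost without any 1 of 5 libraries (adjusted p from 0.0588 to 0.0718). The Dex effect on Zc3h12d was smaller with IL27 by -0.54 ± 0.14 (edgeR adjusted p = 0.00906). Between day 9 and day 3 the Dex effect differed for Zfp36 by 1.12 ± 0.21 (edgeR adjusted p = 1.46e-04), for Zc3h12d by 0.94 ± 0.12 (edgeR adjusted p = 1.88e-06) and for Rc3h1 by 0.39 ± 0.15 (edgeR adjusted p = 0.0349). The Rc3h1 call was lost in 13 of 21 alternatives (adjusted p from 0.0530 to 0.148). The sign of the Zc3h12d effect differed between the days, -0.28 at day 3 and 0.63 at day 9.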

How the results depend on the processing

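Over 1296 refits of the 72 member results, 1197 kept their direction and their side of the threshold, 64 lost a call, 13 gained one and 22 changed sign. In all 22 the original result had not passed. Zfp36l2 kept its calls in every alternative for Dex in WT, the genotype by Dex interaction and Dex at day 9, and without single libraries these ran from 1.49 to 1.63, 1.61 to 1.75 and 1.84 to 1.95. The number of members called changed for the genotype by Dex interaction from 1 to 2 with no low-count filter and 3 with DESeq2, and from 1 to 2 without single libraries. Between genotypes without Dex it changed from 1 to 2 with no low-count filter and to 0 with limma on FPKM in its 3 settings, with the 2 groups alone and with all 24 libraries, and ran from 0 to 1 without single libraries. Dex+IL27 against IL27 went from 4 to 2 with limma on FPKM without a filter, and the Dex by IL27 interaction from 2 to 1 at the lowest without single libraries.

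Signs changed as follows. On library totals Zfp36l1 with IL27 was -0.0014, and Zc3h12a and Rc3h1 in Dex+IL27 against Dex were -0.057 and -0.021. The last Zc3h12a comparison was -0.010, -0.012 and -0.010 in the limma fits, the first and last with a pseudocount of 1, and -0.0026 with all 24 libraries, where the Zfp36l2 interaction of Dex and IL27 was -0.0021. Without single libraries the ranges were -0.085 to 0.16 for Zc3h12a and -0.13 to 0.025 for Rc3h1 with Dex in cKO, -0.085 to 0.066 for Rc3h1 in the genotype by Dex interaction, -0.069 to 0.052 for Zfp36l1 between genotypes without Dex, -0.076 to 0.17 for Zfp36l1 with IL27, -0.10 to 0.10 for Zc3h12a in Dex+IL27 against Dex, and -0.082 to 0.17 for Zfp36l2 in the Dex by IL27 interaction. The cause was not tested.

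Same-numbered libraries did not deviate together (correlations from -0.095 to 0.059). With 3 libraries a group this cannot show whether same-numbered libraries share an animal or culture, which the labels do not say. With the replicate block, 4 members passed with Dex in WT at day 3 in place of 3, 3 in the genotype by Dex interaction in place of 1, and the other counts were unchanged. No paired analysis was possible because the WT and cKO libraries share no replicate numbers, for the comparisons between genotypes.

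Counts over all genes moved by over 1.5 times at day 3 only: from 1129 to 691 at the lowest with Dex in WT, from 0 to 26 with Dex in cKO (no low-count filter), from 353 to between 185 and 765 for the interaction, from 283 to between 63 and 793 between genotypes without Dex, and from 826 to 484 with Dex. On library totals the share of calls that were higher went from 58.3% to 35.3% between genotypes without Dex, from 46.5% to 34.6% in Dex+IL27 against Dex and from 45.0% to 33.6% against IL27. In Dex+IL27 against Ctrl that scaling moved the median of all genes by -0.12. Expression per length depends on the authors' gene lengths, and with CPM in place of FPKM the Zfp36l2 share in Dex+IL27 was 58.6%. Intervals of single levels are limited by 3 libraries per group.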
